A study of Mus musculus with 89 samples.

Results

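The lymphocytes of the mouse jejunum were compared between the plates labelled CD45Epcam and the plates labelled onlyEpcam, which differed in the sorting gate named for them. The comparison held 20 plates, 6 with CD45 in the label and 14 without, of 44 plates of single cells and 89 samples in all. Plates were chosen by the labels of mouse 3 (plates 1 to 3 CD45Epcam, plates 4 to 10 onlyEpcam) and of mouse 4 (plates 1 to 3 CD54Epcam, as written there, and plates 4 to 10 onlyEpcam). The CD54 spelling was taken as the same gate and is called CD45Epcam with the others. A well was kept if it had between 200 and 7000 unique molecular identifiers (UMIs, each standing for 1 captured RNA molecule), between 150 and 1500 detected genes, and a mitochondrial share of UMIs no higher than 40%. These were 2596 of 7678 wells on the 20 plates, 534 on CD45Epcam and 2062 on onlyEpcam plates, against 5199 kept wells of 16850 on all plates of single cells.

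All 20 plates came from male C57BL/6 mice of 3 months on regular chow. The jejunum was dissociated with EDTA. Per the methods, cells were stained with an APC antibody to Epcam and a PE/Cy7 antibody to either CD45 or CD24, and DAPI served to leave out dead cells; the labels of these plates do not give the stain. MARS-seq, a plate method that counts the 3′ ends of transcripts, was run on 1 sorted cell per well. The labels do not say whether CD45 was selected for or against. The study's methods describe single cells gated as negative for CD45 and positive for Epcam, with a gate on Epcam and CD24 that did not use CD45 for tuft cells, a rare chemosensory epithelial cell that carries CD45.

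CD45, encoded by Ptprc, is a phosphatase on the surface of nearly all blood-derived nucleated cells, and Epcam is an adhesion protein of epithelial cells. Intraepithelial lymphocytes are T cells that live between the enterocytes, so that they leave the tissue together with the epithelium when it is stripped with EDTA. Most of them carry CD8 and cytotoxic granules, and many in the small intestine use the γδ form of the T cell receptor. Cd3g, Cd3d and Cd3e encode chains of the CD3 complex, which sits with the T cell receptor in every T cell.

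The 10 plates of 1 mouse shared an animal, and only 2 mice were used. All p-values below therefore measure the spread between plates. Total UMIs per plate ran from 174812 to 1991295, and the 20 plates held 19098305 UMIs, of which 5739908 were in kept wells. Plates 7 and 10 of mouse 4, both onlyEpcam, stood apart from the other 5 of their group in lymphocyte genes, closer to the CD45Epcam plates. Their labels carry the indices S1 and S2, which plates 1 and 2 of mouse 3 also carry, while the other plates of mouse 4 carry indices from S11 to S19. No well of 200 or more UMIs was identical between any plates. Results on Cd3g, Ptprc and T cell receptor wells are given with and without plates 7 and 10, and those on most other lymphocyte genes with them only.

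The regions upstream of the genes on which the comparison turns are shown for reference, since Cd3g and Cd3d moved together and Epcam and Ptprc name the gate. Cd3g (chr9:44969572-44980431, minus strand, GRCm38) and Cd3d (chr9:44981786-44987339, plus strand) lie head to head, with their starts 1355 bases apart. Epcam lies at chr17:87635979-87651129 on the plus strand and Ptprc at chr1:138062861-138175708 on the minus strand. Each sequence gives the 250 bases before the transcript start from RefSeq on GRCm38.p6, in the direction of transcription, and capitals mark a match on either strand to a motif core. The RefSeq start of Ptprc lies inside the span given for the gene. The RUNX core searched was TGTGGT, held by 14.0% of 32851 mouse promoter windows of the same length. The ETS core was AGGAAG, held by 29.5% of them. The GATA core was GATAAG, held by 6.55%, and the CDX core was TTTATG, held by 10.8%.
Cd3g, chr9:44980432-44980681, minus strand: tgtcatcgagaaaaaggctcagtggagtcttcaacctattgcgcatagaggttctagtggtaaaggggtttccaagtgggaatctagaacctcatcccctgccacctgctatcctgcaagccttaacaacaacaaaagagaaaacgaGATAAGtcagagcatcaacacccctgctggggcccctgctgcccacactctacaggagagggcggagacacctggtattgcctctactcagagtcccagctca
Cd3d, chr9:44981536-44981785, plus strand: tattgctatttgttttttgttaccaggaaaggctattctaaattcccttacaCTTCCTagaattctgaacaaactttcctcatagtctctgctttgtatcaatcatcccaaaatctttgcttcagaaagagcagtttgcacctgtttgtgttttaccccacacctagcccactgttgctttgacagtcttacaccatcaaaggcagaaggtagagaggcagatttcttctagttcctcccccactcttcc
Epcam, chr17:87635729-87635978, plus strand: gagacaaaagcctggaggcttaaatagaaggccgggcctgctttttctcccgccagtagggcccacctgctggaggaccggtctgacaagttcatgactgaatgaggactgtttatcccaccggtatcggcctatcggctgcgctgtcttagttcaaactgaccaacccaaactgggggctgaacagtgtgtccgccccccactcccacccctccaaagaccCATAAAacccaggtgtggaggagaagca
Ptprc, chr1:138175306-138175555, minus strand: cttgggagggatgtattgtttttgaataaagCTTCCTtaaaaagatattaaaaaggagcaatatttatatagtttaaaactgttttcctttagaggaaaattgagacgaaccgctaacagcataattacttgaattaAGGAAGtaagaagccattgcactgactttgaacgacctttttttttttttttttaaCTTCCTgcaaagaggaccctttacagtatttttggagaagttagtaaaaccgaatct
A match is a description of the letters and not of a bound site. The Cd3g window held 1 GATA core, the Cd3d window 1 ETS core, the Ptprc window 3 ETS cores and the Epcam window 1 CDX core. No RUNX core was found in the 4 windows.

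To ask which gate held the lymphocytes, the share of kept wells with a UMI of each marker gene was taken per plate. The onlyEpcam plates held them. Cd3g was detected in 1.00, 1.79 and 3.13% of kept wells on the CD45Epcam plates of mouse 3, and in 1.94, 0 and 1.10% on those of mouse 4. On the onlyEpcam plates of mouse 3 it was detected in 15.4% at the lowest, 32.4% at the median and 44.8% at the highest. On those of mouse 4 the share ran from 14.3 to 31.0% over 5 plates, and was 3.70 and 3.64% on plates 7 and 10. All 14 onlyEpcam plates lay above all 6 CD45Epcam plates. Among wells of 500 or more UMIs this was lost, with 1.05% on plate 10 of mouse 4 and 3.17% on CD45Epcam plate 3 of mouse 3.

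The counting error of these shares was wide on the small plates. The exact (Clopper-Pearson) 95% interval was 0.0253 to 5.45% for CD45Epcam plate 1 of mouse 3 and 36.8 to 53.0% for onlyEpcam plate 7 of mouse 3, and covers counting error only. On CD45Epcam plate 2 of mouse 4, Cd3g was found in 0 of 64 wells, which allows a share of up to 4.69% by the limit of 3 counts, with an exact interval of 0 to 5.60%. For plates 7 and 10 of mouse 4 the intervals, 1.02 to 9.21% and 1.00 to 9.05%, overlapped those of the CD45Epcam plates.

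The mean Cd3g share was 24.2% on onlyEpcam and 1.49% on CD45Epcam plates, a difference of 22.8 points (exact two-sided permutation test within mouse, p = 0.000278, adjusted p = 0.000417 over 6 plate measures). The difference was 28.5 points in mouse 3 (exact permutation p = 0.00833, the smallest that 3 against 7 plates allow), and in mouse 4 the means were 18.0 and 1.01% (exact permutation p = 0.0417). Without plates 7 and 10 of mouse 4 it was 25.6 points (exact permutation p = 0.000149). After each well was thinned to 200 UMIs, Cd3g was detected in 9.07% of onlyEpcam and 0.162% of CD45Epcam wells.

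Ptprc, the transcript of CD45 itself, followed the same side. It was detected in 2.00 to 3.13% of wells on the CD45Epcam plates of mouse 3, and in 3.88, 0 and 0% on those of mouse 4, where 0 wells allow up to 4.69 and 3.30%. On onlyEpcam plates it ran from 14.0 to 36.4% in mouse 3 and from 11.8 to 23.8% on 5 plates of mouse 4, with 3.70 and 0.909% on plates 7 and 10. The groups were apart in mouse 3 and overlapped in mouse 4 through those 2 plates. The difference was 18.4 points over both mice (exact permutation p = 0.000208, adjusted p = 0.000417) and 20.9 points without plates 7 and 10. In mouse 4 alone it was 13.3 points and missed the threshold (exact permutation p = 0.0583).

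Epcam went the other way. It was detected in 71.4 to 76.6% of wells on the CD45Epcam plates of mouse 3 and 56.3 to 68.1% on those of mouse 4. The onlyEpcam plates gave 21.6 to 30.0% in mouse 3 and 44.7 to 54.5% in mouse 4, so that the groups did not overlap within either mouse, nor between them. Wells were deeper on the CD45Epcam plates of mouse 3, and after thinning to 200 UMIs the mean shares were 15.1% on CD45Epcam and 8.86% on onlyEpcam plates, a difference of -6.25 points (exact permutation p = 0.000833), and the groups overlapped in both mice. The mean share was 28.6 points lower on onlyEpcam plates (exact permutation p = 6.94e-05, the smallest that the design allows, adjusted p = 0.000417). The difference was -45.9 points in mouse 3 and -11.3 points in mouse 4, and -29.6 points without plates 7 and 10.

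**Figure D1:**
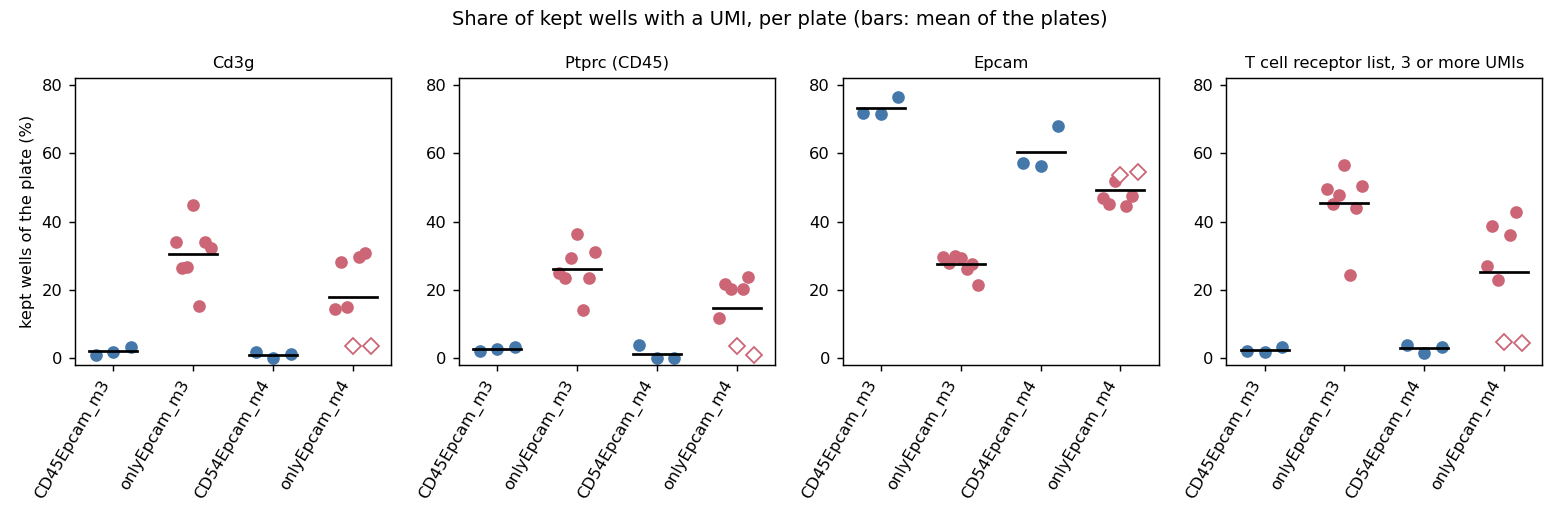
Share of kept wells per plate (percent, vertical axis) with a UMI of Cd3g, Ptprc or Epcam, or with 3 or more UMIs of the T cell receptor list, for the 4 groups of plates. Each point is 1 plate, bars are group means, and open diamonds are plates 7 and 10 of mouse 4; CD45Epcam plates (blue) sit at 0 to 3.13% for Cd3g, below every onlyEpcam plate (red), and above every onlyEpcam plate for Epcam.

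Wells were then read for the whole T cell receptor complex, from a list of 13 genes (Cd3e, Cd3d, Cd3g, Cd247, Trac, Trbc1, Trbc2, Trdc, Tcrg-C1, Tcrg-C2, Tcrg-C4, Cd8a and Cd8b1). A well with 3 or more of their UMIs is called a T cell receptor well. There were 14 such wells among 534 kept wells of the CD45Epcam plates and 763 among 2062 of the onlyEpcam plates. Per plate they made up 1.56 to 3.88% on CD45Epcam plates, 24.4 to 56.5% on onlyEpcam plates of mouse 3 and 23.0 to 42.9% on 5 onlyEpcam plates of mouse 4. Plates 7 and 10 of mouse 4 gave 4.63 and 4.55%, the lowest of the onlyEpcam plates and above every CD45Epcam plate. The difference of the means, 32.7 points, was 36.9 points without these 2 plates and 14.1 points with all wells of a plate, kept or not, as the denominator.

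The filter of wells moved the count on a few plates. Over all wells of a plate, kept or not, 2 to 4 wells per CD45Epcam plate had 3 or more of these UMIs. On onlyEpcam plates there were 56 to 93 in mouse 3 and 33 to 54 in mouse 4, with 8 and 14 on plates 7 and 10. The kept wells gave 5 on each of these 2 plates, and on CD45Epcam plate 2 of mouse 4 the filter left 1 of 4. Near the limit of 3 UMIs, the CD45Epcam plates held 5 wells with 2 UMIs and 2 with 3, and the onlyEpcam plates 90 and 73. With a limit of 2 or of 5 UMIs the difference of the means was 35.9 and 27.9 points. At a limit of 2 UMIs the gates overlapped, with 6.36% on plate 10 of mouse 4 and 6.80% on CD45Epcam plate 1 of mouse 4. At a limit of 3 among wells of 500 or more UMIs, plate 10 gave 0%, against 3.17% on CD45Epcam plate 3 of mouse 3.

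Free RNA can place a UMI in a well whose cell does not express the gene. Enterocytes should lack Cd3g. Among wells with 10 or more UMIs of the enterocyte list, 1 of 414 on CD45Epcam plates (0.242%, median 2740 UMIs) and 8 of 774 on onlyEpcam plates (1.03%, median 3325 UMIs) had a Cd3g UMI. The mean shares per plate over all kept wells, 1.49 and 24.2%, were above these, with median depths of 2720 and 1557 UMIs as plate means.

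The T cell receptor wells of the onlyEpcam plates had few epithelial transcripts. Their median was 1 UMI of the enterocyte list and 0 of the pan epithelial list, at a median depth of 824 UMIs and 10.1% mitochondrial UMIs. Epcam was detected in 44 of 763 of them (5.77%). It was detected in 611 of the 1034 wells of the same plates with 0 UMIs of the T cell receptor list (59.1%), whose median depth was 2668 UMIs. The 14 wells of the CD45Epcam plates had no Epcam UMI, which allows a share of up to 21.4%, and had a median depth of 567 UMIs.

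**Figure D2:**
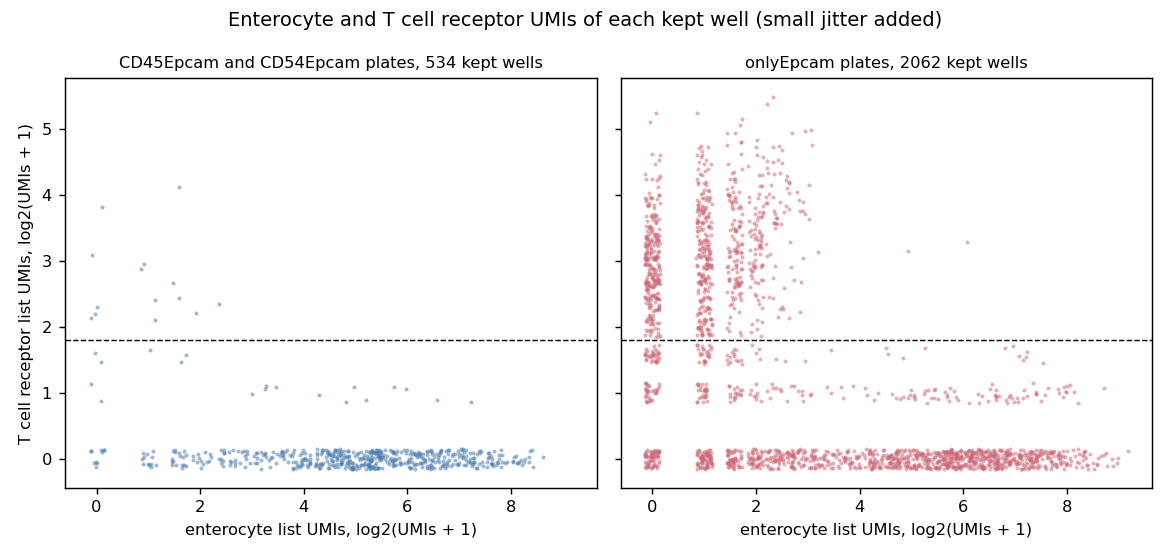
UMIs of the T cell receptor list (vertical axis) against UMIs of the enterocyte list (horizontal axis) in each kept well, both as log2(UMIs + 1) with a small jitter. Points above the dashed line are T cell receptor wells, 14 of 534 on CD45Epcam plates (left) and 763 of 2062 on onlyEpcam plates (right), and they lie at low enterocyte UMIs, while 2 wells on the right have 3 or more T cell receptor UMIs and 10 or more enterocyte UMIs.

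The T cell receptor wells of the onlyEpcam plates carried genes of cytotoxic and intraepithelial lymphocytes. Gzma, a granule protease, was detected in 88.2% of them and Ccl5, a chemokine of activated T cells, in 94.1%. Cd7, a T cell surface protein, was detected in 72.9%, Gzmb in 71.6% and Nkg7, a granule protein, in 52.4%. Itgae, the integrin that binds lymphocytes to epithelial E-cadherin, was detected in 42.3% and Ptprc in 44.7%. Wells of the same plates with 0 T cell receptor UMIs gave 22.2% for Gzma, 21.6% for Ccl5, 5.51% for Cd7, 4.26% for Itgae and 5.42% for Ptprc. The cytotoxic list had a median of 32 UMIs per T cell receptor well on onlyEpcam and 22 on CD45Epcam plates.

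Both receptor forms were present. Trdc, the constant gene of the δ chain, was detected in 27.7% of the 763 wells and Trac, that of the α chain, in 34.7%. Trdc without Trac was found in 21.8%, Trac without Trdc in 28.8%, both in 5.90% and neither in 43.5%. The shares with Trdc alone were 21.1% in mouse 3 and 23.6% in mouse 4, and those with Trac alone 27.9 and 31.5%. Cd8a was detected in 62.6% of the wells, Cd8b1, the partner chain of the Cd8 heterodimer, in 7.08% and Cd4 in 3.01%. Tcrg-C1, Tcrg-C2 and Tcrg-C4 share sequence, as do Trbc1 and Trbc2, and reads may be split between them. The 14 wells of the CD45Epcam plates all held Gzma and Ccl5, 10 of them Cd8a, 4 Trdc and 2 Trac.

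Sums of all kept wells per plate were compared next, with mouse as a block. Of 3529 genes tested with edgeR's quasi-likelihood test, 485 were higher on onlyEpcam plates (13.7%) and 573 lower (16.2%) at a Benjamini-Hochberg adjusted p under 0.05. Scaling by DESeq2's size factors inside edgeR (RLE) in place of TMM factors shifted the median log2 change of all genes by 0.112 and gave 596 higher and 441 lower. DESeq2 gave 619 and 448. Without plates 7 and 10 of mouse 4 there were 672 higher and 515 lower. In sums, fewer cells of a type and less RNA per cell cannot be told apart; the counts of wells above are per cell.

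Cd3g had 14 UMIs over the CD45Epcam and 935 over the onlyEpcam plates. Its level in CPM (the UMIs of a gene scaled to a common plate total) ran from 0 to 23.4 on CD45Epcam and from 28.8 to 420 on onlyEpcam plates, with no overlap. The change was 4.21 on the log2 scale (SE 0.49, edgeR adjusted p = 2.17e-07), 4.61 in mouse 3, 3.67 in mouse 4 and 4.43 without plates 7 and 10. Ptprc ran from 0 to 28.0 CPM on CD45Epcam and from 6.10 to 259 CPM on onlyEpcam plates, overlapping through plate 10 of mouse 4 alone. Its log2 change was 3.70 (SE 0.46, edgeR adjusted p = 5.94e-07), 4.09 in mouse 3, 3.13 in mouse 4 and 3.92 without plates 7 and 10. The value in mouse 4 rests on CD54Epcam plate 1, since the other CD54Epcam plates had no Ptprc UMI; without plate 1 the fit gave 7.58, which depends on the prior count.

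Epcam moved less as a level than as a share of wells. It lay at 464 to 620 CPM on the CD45Epcam plates of mouse 3 and 249 to 468 CPM on the onlyEpcam plates. In mouse 4 it was higher on both sides, at 1056 to 1229 and 825 to 1087 CPM, and the groups overlapped in both mice. The log2 change was -0.49 (SE 0.15, edgeR adjusted p = 0.0156), -0.85 in mouse 3 and -0.03 in mouse 4, where it was not past the threshold (edgeR adjusted p = 0.952). The call over both mice was lost in 10 of 20 fits that left out 1 plate (edgeR adjusted p up to 0.145).

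Of the 13 genes on the T cell receptor list, 11 passed the filter on low counts and rose on onlyEpcam plates, where 13.7% of all genes did. Their median log2 change was 4.21 against -0.03 over all genes tested. Genes this sparse on CD45Epcam plates passed the filter through the onlyEpcam plates, so that neither this count nor those of the lymphocyte and leukocyte lists below is support by itself. The sum of the T cell receptor list, which also defined the wells above, ran from 36.5 to 123 CPM on CD45Epcam plates. On onlyEpcam plates it ran from 1391 to 3024 CPM in mouse 3, from 1022 to 1897 CPM on 5 plates of mouse 4 and was 232 and 322 CPM on plates 7 and 10. Cd8a, the CD8 α chain, went from 18 to 1058 UMIs, a log2 change of 4.04 (SE 0.44, edgeR adjusted p = 5.96e-08). Cd3d had 3 UMIs on CD45Epcam and 353 on onlyEpcam plates, a ratio of 40.5 per UMI sequenced (counting interval 13.7 to 197). Trac had 2 and 456 UMIs, a ratio of 78.4 (counting interval 21.6 to 650).

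The receptor genes were also tested within each mouse. In mouse 3, where 20.0% of 3490 genes were higher on onlyEpcam plates and 18.4% lower, 12 of 12 tested list members rose. In mouse 4, where 4.65% of 2324 genes were higher and 3.66% lower, 10 of 11 rose, and 11 of 11 without plates 7 and 10. Here too the genes passed the filter through the onlyEpcam plates, so that these counts are no support by themselves. The calls in mouse 4 rested on its 3 CD54Epcam plates: without plate 3 no gene of any kind was called there, with Cd3g at an edgeR adjusted p of 0.0934 and Ptprc at 0.155, and without plate 2 these were 0.0545 and 0.0927. The member that missed the threshold in mouse 4 was Trdc (log2 change 2.71, edgeR adjusted p = 0.0852). In the test of the difference between the mice, 82 of 4222 genes passed (1.94%), and none of 12 tested receptor genes did.

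Other lymphocyte genes rose with them, where 13.7% of all genes tested did. Of 20 intraepithelial lymphocyte genes, 15 were tested and rose, with a median log2 change of 4.23. Cd7 went from 32 to 2178 UMIs (log2 change 4.23, SE 0.38, edgeR adjusted p = 4.88e-09) and did not overlap between the gates. Itgae went from 8 to 609 UMIs (4.38, SE 0.50) and Fcer1g, a signalling adaptor found in many innate-like lymphocytes, from 8 to 614 (4.39, SE 0.50). Of 15 pan leukocyte genes, 14 were tested and rose (median 3.48), among them Laptm5, a lysosomal protein of blood cells (4.71, SE 0.42), and Coro1a, an actin regulator (4.29, SE 0.42). Of 15 cytotoxic effector genes, 7 were tested and rose (median 3.81), and sparse members such as Prf1, the pore protein of cytotoxic granules (0 and 17 UMIs), and Ifng, interferon γ (0 and 38 UMIs), were not tested.

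Gzma showed the range across plates. It lay between 98.6 and 495 CPM on CD45Epcam plates, with a median of 300 CPM, and between 433 and 6541 CPM on onlyEpcam plates, with a median of 2994 CPM. On 13 of 14 onlyEpcam plates it was above all CD45Epcam plates, and its log2 change was 3.46 (SE 0.40, edgeR adjusted p = 2.17e-07). Ccl5 lay between 47.5 and 393 CPM and between 664 and 5331 CPM, without overlap (log2 change 3.60, SE 0.37, edgeR adjusted p = 2.28e-08). Gzmb, the granzyme that triggers cell death in targets, changed by 3.96 on the log2 scale (SE 0.46).

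Markers of helper, naive and regulatory T cells were sparse. None of 9 genes of this list had enough UMIs for the test over both mice. Thy1 had 1 UMI on CD45Epcam and 96 on onlyEpcam plates, Cd6 had 0 and 81, and Il7r, the receptor for a survival cytokine, had 0 and 59. In mouse 3, 2 of the 9 passed the filter, through the onlyEpcam plates, and both rose, where 20.0% of all genes did. This count is no support by itself.

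**Figure D3:**
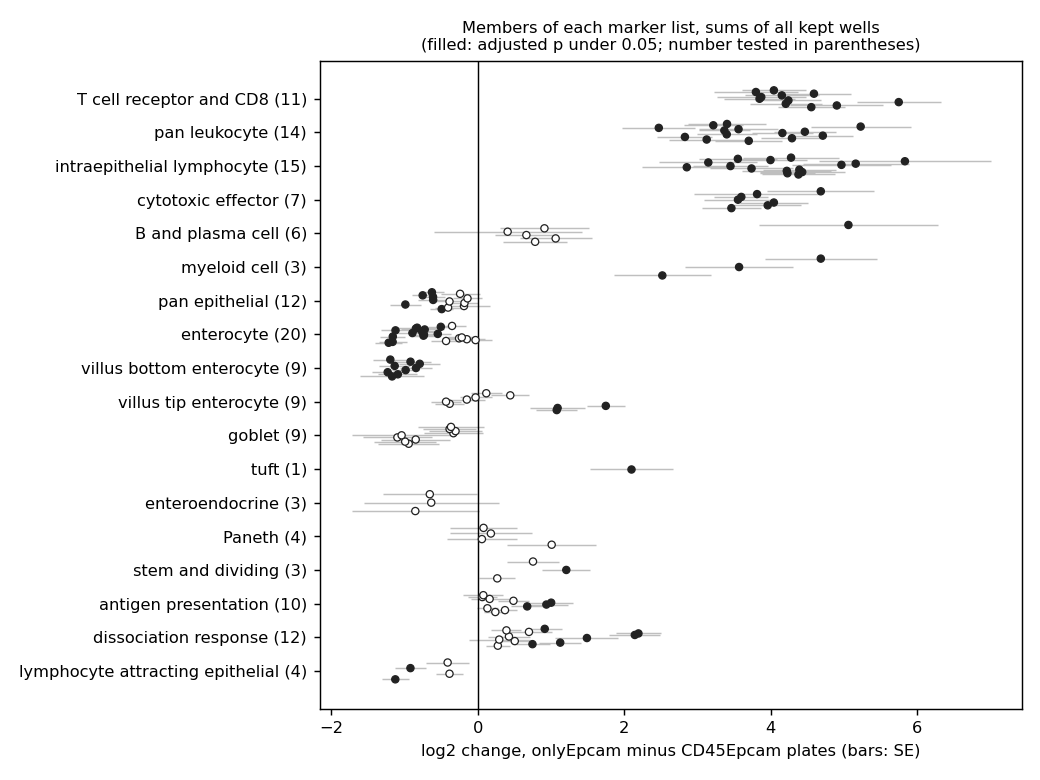
Log2 change between onlyEpcam and CD45Epcam plates (horizontal axis, bars are SE) of the tested members of 18 marker lists, sums of all kept wells. Filled points have an edgeR adjusted p under 0.05; the T cell receptor, pan leukocyte, intraepithelial lymphocyte and cytotoxic lists lie at 2.47 or above, and the villus bottom list lies between -1.23 and -0.79.

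Other blood cells were counted in the same way, with no test of their frequency. Wells with 10 or more UMIs of the myeloid list (macrophage and dendritic cell genes) were 1 of 534 on CD45Epcam and 23 of 2062 on onlyEpcam plates, and the shares per plate overlapped. Of its 14 genes, 3 passed the filter, through the onlyEpcam plates, and rose, where 13.7% of all genes did; this count is no support by itself. Lyz2, the lysozyme of macrophages, went from 19 to 360 UMIs (log2 change 2.52, SE 0.66, edgeR adjusted p = 0.00462). Itgax, an integrin of dendritic cells, had 1 and 136 UMIs, and Mpeg1, a pore-forming protein of macrophages, had 3 and 141, a ratio of 16.2 (counting interval 5.42 to 79.3). In mouse 4 only Lyz2 was tested and it did not pass (log2 change 3.27, edgeR adjusted p = 0.122).

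Plasma cell genes differed between the mice. Wells with 10 or more UMIs of the B and plasma cell list were 25 of 534 (4.68%) on CD45Epcam and 222 of 2062 (10.8%) on onlyEpcam plates. Igha, the heavy chain of IgA, lay at 1688 to 5300 CPM on CD45Epcam and 17256 to 44172 CPM on onlyEpcam plates of mouse 3. In mouse 4 it lay at 8774 to 13192 CPM and 1911 to 10860 CPM, overlapping. The log2 change was 2.37 in mouse 3 and -0.43 in mouse 4, and over both mice 0.66 (SE 0.42, edgeR adjusted p = 0.243), or 0.83 without plates 7 and 10. Jchain, which joins IgA into dimers, gave 2.80 in mouse 3 and -0.44 in mouse 4.

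Igha UMIs were also found in wells of other kinds. Igha was detected in 63.3% of the T cell receptor wells of onlyEpcam plates, 73.0% in mouse 3 and 36.5% in mouse 4, with 1758 UMIs in 483 wells. In wells with 0 T cell receptor UMIs it was detected in 93.0% on onlyEpcam plates of mouse 3, 55.7% on those of mouse 4 and 41.3% on CD45Epcam plates. Of the 6 tested B and plasma cell genes, only Ighm, the heavy chain of IgM, was called over both mice (2 against 276 UMIs, a ratio of 47.5, counting interval 13.0 to 394). In mouse 3, where 20.0% of all genes were higher and 18.4% lower, 5 of 6 were called.

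The mast cell, red cell and stromal lists held no gene with enough UMIs for the test over both mice. The mast cell proteases Mcpt1 and Mcpt2 had 0 UMIs on CD45Epcam plates and 79 and 40 on onlyEpcam plates, all of them on 2 plates. Hbb-bs, a haemoglobin chain, had 0 and 2 UMIs, and Hbb-bt and Hba-a1 had none. Dcn, a matrix protein of fibroblasts, had 1 and 104 UMIs and Pecam1, an endothelial adhesion protein, 2 and 31.

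Epithelial genes were lower as a share of the onlyEpcam sums. Of 20 enterocyte genes, all tested, 14 fell and none rose (median log2 change -0.74), where 16.2% of all genes fell, among them Fabp2, a fatty acid carrier (-1.16, SE 0.19, edgeR adjusted p = 3.58e-05). Apoa1 and Apoa4, apolipoproteins of chylomicrons, were at -0.43 and -0.03 and did not pass. Of 12 pan epithelial genes 6 fell (median -0.45), with Lgals4, a gut lectin, at -0.63 (SE 0.16, edgeR adjusted p = 0.00421). In mouse 4 none of the 12 passed, and 3 of 19 tested enterocyte genes fell, where 3.66% of all genes did. Wells with 10 or more enterocyte UMIs made up 77.5% of kept wells on CD45Epcam and 37.5% on onlyEpcam plates. Per plate they numbered 48 to 86 on CD45Epcam and 28 to 84 on onlyEpcam plates, so that the counts overlapped.

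Secretory and crypt lists held few calls. None of 9 tested goblet cell genes passed (median -0.85), and 4 fell without plates 7 and 10, where 515 of 3463 genes did. Wells with 10 or more UMIs of the goblet list were 34 of 534 (6.37%) on CD45Epcam and 60 of 2062 (2.91%) on onlyEpcam plates, with no test. Zg16, a goblet granule protein, ranged from 36.9 to 10013 CPM among CD45Epcam plates alone. None of 4 Paneth cell genes passed (median 0.13), nor did any of 3 enteroendocrine genes (median -0.66). Of 3 tested stem and dividing cell genes, Tubb5, a tubulin, rose (1.21, SE 0.33, edgeR adjusted p = 0.00583). The tuft cell list had 1 tested gene, Lrmp, which rose (2.10, SE 0.56, edgeR adjusted p = 0.00541). Lrmp is also a lymphocyte gene, and wells with 10 or more UMIs of the tuft list were 2 of 534 and 8 of 2062. Alox5ap, also shared with blood cells, had 7 UMIs on CD45Epcam and 72 on onlyEpcam plates.

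Antigen presentation and stress genes rose in part. Of 10 antigen presentation genes 3 rose, where 13.7% of all genes did: H2-Ab1, H2-Aa and H2-Eb1, by 0.67, 0.94 and 1.00 on the log2 scale, all encoding MHC class II chains. Cd74, the invariant chain of class II, was at 0.49 and did not pass (edgeR adjusted p = 0.0728). B2m, H2-K1 and the other class I genes did not pass. Of 12 tested genes of a list of dissociation response genes, 6 rose (median 0.72) against the same 13.7%, with the heat shock genes Hspa1a and Hspa1b at 2.14 (SE 0.35) and 2.19 (SE 0.30). Hspa1b lay at 23.7 to 58.4 CPM on CD45Epcam and 212 to 328 CPM on onlyEpcam plates of mouse 3. In mouse 4 it was between 0 and 9.97 CPM on every plate, and neither gene was tested there. Egr1, an immediate early gene, rose by 1.49 (SE 0.43, edgeR adjusted p = 0.00946), while Fos was at 0.27 and did not pass. Of epithelial genes that attract or hold lymphocytes, 4 were tested, and Ccl25, the chemokine that draws T cells to the small intestine, fell (-1.13, SE 0.18, edgeR adjusted p = 2.45e-05). Btnl1, a butyrophilin-like protein that sustains intestinal γδ T cells, also fell (-0.92, SE 0.22, edgeR adjusted p = 0.00176), where 16.2% of all genes did.

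Among the genes with the largest falls, Ugt2b34, a glucuronosyltransferase, lay at 182 to 430 CPM on CD45Epcam and 25.3 to 165 CPM on onlyEpcam plates, without overlap (log2 change -1.55, SE 0.21, edgeR adjusted p = 3.40e-06). Maob, a monoamine oxidase, changed by -1.84 (SE 0.35), Sult1d1, a sulfotransferase, by -1.48 (SE 0.24), and Enpep, a brush border peptidase, by -1.39 (SE 0.22). Among those with the largest rises, beside genes already named, were Rgs1, a regulator of G protein signalling (8 to 649 UMIs, 4.43, SE 0.47), and Arhgdib, a gene of blood cells (5 to 418 UMIs, 4.47, SE 0.42).

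The comparison was repeated on wells with 0 UMIs of the T cell receptor list, 501 on CD45Epcam and 1034 on onlyEpcam plates. Such wells can still hold T cells, since the list is sparse. T cell receptor wells of onlyEpcam plates had a median of 8 list UMIs, and 175 wells of these plates had 1. Among the wells with 0, Gzma was detected in 22.2% on onlyEpcam and 5.59% on CD45Epcam plates. Of 2194 genes, 63 were higher on onlyEpcam plates (2.87%) and 72 lower (3.28%), and 136 passed without plates 7 and 10. Of these calls, 123 were also called over all kept wells. Epcam no longer differed in a way that the test could show (log2 change 0.03, SE 0.16, edgeR adjusted p = 0.938), and none of 12 pan epithelial genes passed. It was detected in 69.7% of these wells on CD45Epcam and 59.1% on onlyEpcam plates. Median depth was 2459 and 2668 UMIs over the wells of the 2 gates.

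Blood cell genes were still higher in these wells. Of 15 pan leukocyte genes, 6 passed the filter, through the onlyEpcam plates, and rose, where 2.87% of all genes did. Lcp1, an actin bundling protein of blood cells, had 3 and 164 UMIs, a ratio of 26.0 (counting interval 8.74 to 127), and Tyrobp, a signalling adaptor of myeloid and natural killer cells, had 3 and 155, a ratio of 24.6 (8.26 to 120). Rgs1 had 0 UMIs on CD45Epcam and 124 on onlyEpcam plates, at least 19.7-fold higher when the CD45Epcam group is set at 3 UMIs. Apoe, a lipid carrier made by macrophages, had 1 and 286 UMIs, and Apol7c, a dendritic cell gene, 1 and 191. Lyz2 rose by 3.79 (SE 0.73, edgeR adjusted p = 0.00145), and Gzma and Ccl5 by 2.62 and 2.74. In mouse 4 alone, Gzma was at 1.77 (edgeR adjusted p = 0.110) and Ccl5 at 1.63 (edgeR adjusted p = 0.0632), neither past the threshold, and Lyz2 was not tested. The class II genes H2-Ab1, H2-Aa, H2-Eb1 and Cd74 rose by 1.24, 1.54, 1.62 and 1.04.

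Stress genes rose here too, and villus genes split. Of 9 tested dissociation response genes 7 rose (median 1.09), where 2.87% of all genes did, including Fos (0.78, SE 0.16, edgeR adjusted p = 0.00233). In mouse 4 alone, Fos (0.64, edgeR adjusted p = 0.0918) and Nfkbia (1.02, edgeR adjusted p = 0.0543) missed the threshold, and Hspa1b was not tested. In wells with 0 UMIs of the T cell receptor, intraepithelial lymphocyte and cytotoxic lists, none of 5 tested rose. In the stricter enterocyte wells described below, Nfkbia was called higher (1.09, SE 0.30, edgeR adjusted p = 0.0475). That call was lost without plates 7 and 10 (edgeR adjusted p = 0.0629). Enterocytes change their genes as they climb the villus, and 2 lists held genes of its bottom and its tip. Of 9 bottom genes 3 fell in wells with 0 T cell receptor UMIs, where 3.28% of all genes did. These were the antimicrobial lectin Reg3b (-0.75), the flagella-binding Lypd8 (-0.63) and the glutathione transferase Gstm3 (-0.77). The call for Lypd8 was lost without plates 7 and 10 (edgeR adjusted p = 0.0539). Of 9 tip genes 3 rose, against 2.87%, Slc28a2, a nucleoside transporter (2.14), Ada, an adenosine deaminase (1.70), and Clca4a, of the chloride channel regulator family (1.06). Over all kept wells all 9 bottom genes had fallen (median -1.09) and 3 tip genes had risen, against 16.2% and 13.7% of all genes.

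Wells were last limited to a stricter set of enterocyte wells, with 0 UMIs of the T cell receptor, intraepithelial lymphocyte and cytotoxic lists and 10 or more UMIs of the enterocyte list. These were 361 wells on CD45Epcam and 396 on onlyEpcam plates. Of 825 genes, 16 were higher on onlyEpcam plates (1.94%) and 5 lower (0.606%), and without plates 7 and 10 of mouse 4, 24 were higher and 11 lower. Of 8 tested tip genes 4 rose (median 0.92), and none of 7 bottom genes passed (median -0.41). In wells with 0 UMIs of the same 3 lists and no demand on enterocyte UMIs, 8 of 1082 genes passed. None of these was a bottom gene, and of 8 tip genes only Slc28a2 passed (2.19, SE 0.48, edgeR adjusted p = 0.0256). The enterocyte list chose these wells, and Apoa1, Apoa4 and Apob stand on both that list and the tip list. None of these 3 genes passed.

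The tip genes varied widely between plates. Slc28a2 lay at 9.78 to 28.4 CPM on CD45Epcam plates of mouse 3 and 111 to 324 CPM in mouse 4, and at 0 to 564 CPM and 221 to 707 CPM on onlyEpcam plates. Its log2 change was 2.17 (SE 0.46, edgeR adjusted p = 0.00806), with a UMI in 8.03% of CD45Epcam and 18.2% of onlyEpcam enterocyte wells. Ada changed by 1.68 (SE 0.46), Clca4a by 1.41 (SE 0.39) and Klf4, a transcription factor of differentiated cells, by 0.98 (SE 0.25). All 4 overlapped between the gates. Enpp3, a nucleotide-cleaving surface enzyme, rose by 1.57 (SE 0.30, edgeR adjusted p = 0.00369), and Malat1, a nuclear RNA, by 1.11 (SE 0.28, edgeR adjusted p = 0.0285). Cyb5a, cytochrome b5, fell by 1.16 (SE 0.25, edgeR adjusted p = 0.00895).

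The goblet genes Zg16 and Tff3 were also called lower in enterocyte wells, by -4.21 and -3.97. The difference was in mouse 3, where Zg16 lay at 2389 to 6359 CPM on CD45Epcam and 15.3 to 282 CPM on onlyEpcam plates. In mouse 4 it lay at 0 to 52.7 and 0 to 127 CPM, and neither gene was tested there. Of their UMIs on CD45Epcam plates, 91.4 and 87.7% came from 5 wells, so that the call rests on a few wells with both programs; whether these held 2 cells was not tested.

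**Figure D4:**
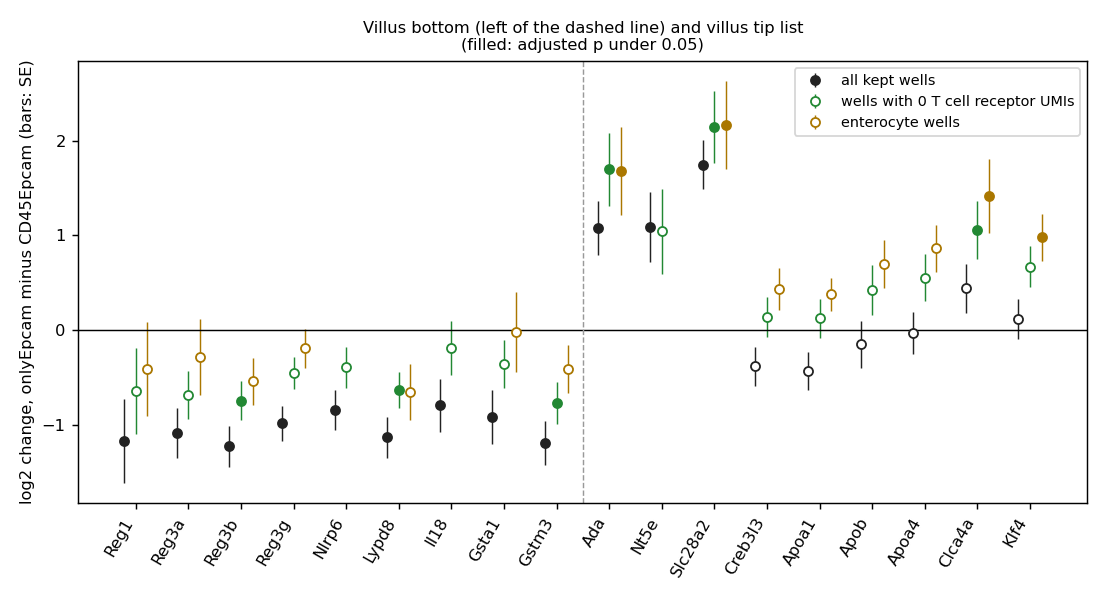
Log2 change between onlyEpcam and CD45Epcam plates (vertical axis, bars are SE) of the villus bottom (left) and villus tip genes (right), over all kept wells (black), wells with 0 T cell receptor UMIs (green) and the stricter enterocyte wells (gold). Filled points have an edgeR adjusted p under 0.05; all 9 bottom genes are filled and below 0 over all kept wells, none is filled in enterocyte wells, and Slc28a2 is filled in all 3.

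Gates also differed in how many wells were kept and in their quality. A plate of 384 wells kept 64 to 112 wells on CD45Epcam and 94 to 221 on onlyEpcam plates, a share 15.2 points higher on the latter (exact permutation p = 0.000139) and 15.5 points without plates 7 and 10. On CD45Epcam plates of mouse 3, 110 to 113 wells per plate passed the UMI and gene limits but exceeded 40% mitochondrial UMIs, against 39 to 79 on onlyEpcam plates. In mouse 4 these were 11 to 35 and 3 to 30. The median mitochondrial share of kept wells was 28.6% on CD45Epcam and 16.6% on onlyEpcam plates, as plate means, a difference of -11.9 points (exact permutation p = 0.000347), or -13.1 points without plates 7 and 10. In mouse 4 alone it was -6.20 points and missed the threshold (exact permutation p = 0.075). In wells with 0 T cell receptor UMIs the difference was -2.84 points (exact permutation p = 0.127). On onlyEpcam plates T cell receptor wells had 10.1% mitochondrial UMIs, and wells with 10 or more enterocyte UMIs 31.9% on CD45Epcam and 32.9% on onlyEpcam plates.

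Depth differed between the mice. The plate median of UMIs per kept well was 3220 to 4614 on CD45Epcam and 842 to 1501 on onlyEpcam plates of mouse 3, and 1139 to 1787 and 1354 to 2861 in mouse 4. The difference was -1163 UMIs over both mice (exact permutation p = 0.0138), -1047 UMIs without plates 7 and 10, 453 UMIs in mouse 4 (exact permutation p = 0.258) and 239 UMIs among wells with 0 T cell receptor UMIs (exact permutation p = 0.660). After thinning to 200 UMIs, the share of wells with any T cell receptor UMI differed by 30.8 points.

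The plates of the other gates put these shares in place. Cd3g was detected in 15.2 to 61.1% of kept wells on 5 plates of mouse 2 labelled CD24 and in none on 6 plates of mouse 2 labelled Epcam. On 2 plates of mouse 1 labelled low for Epcam and high for Cd24, with 34 kept wells, it was 0 and 4.17%, and on 5 plates of mouse 1 without a gate in the label it was at most 0.862%. These plates, like those of mice 3 and 4, came from mice of 3 months. Gate and animal cannot be told apart between these plates and those of mice 3 and 4.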

How the data were processed

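RNA of single sorted cells was measured by MARS-seq. The authors deposited 1 table of whole-number UMI counts for all plates of single cells, with 23379 genes in rows and wells in columns, up to 384 per plate, named by well barcode and plate. Per the study's methods, reads were mapped to GRCm38 with Ensembl gene models by zUMIs, which runs STAR; the submitters' processing notes name bcl2fastq 2.15.0.4. The counts carry no normalization, and the study's subtraction of background was not applied here. A table of cell clumps was not used.

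Wells were filtered on UMIs (200 to 7000), genes (150 to 1500) and mitochondrial share (at most 40%). No doublet caller was run. The 384 barcodes are shared between plates by design, 383 of them on all 20. All columns were mapped to plates.

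Kept wells were summed per plate and tested with edgeR 4.0.16 (R 4.3.3, TMM factors, quasi-likelihood test, filter on low counts, Benjamini-Hochberg adjustment at 0.05) with mouse as a block, since all plates of a mouse come from 1 animal. DESeq2 1.42.0 was an alternative. The scripts were tested on simulated data. Shares per plate were compared by exact two-sided permutation of plates within mouse (14400 splits, 120 within 1 mouse; scipy 1.17.1, python 3.11.15). Intervals are exact (Clopper-Pearson, 95%) and cover counting error only. Limits for 0 wells rest on 3 counts.

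Genes were named if they were 1 of 3 markers, among the 3 most abundant members of 1 of 22 marker lists, or among the 12 largest changes in each direction with an adjusted p under 0.05, the same sign in both mice and 20 or more UMIs. Other genes that are named were chosen after their values were seen. The plates, the members and the lists were chosen with earlier results of these data known. Alternatives are given at the end. Some items are not reported here.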

Additional observations from a re-analysis of the deposited data

Results flagged for a closer look

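In 20 series of 7 plates that were checked, 3 had a plate far from the other 6 of its group; chance gives about 1 in 20. OnlyEpcam plate 8 of mouse 3 kept 57.6% of its wells, the highest of its group, and had the lowest share of T cell receptor wells, 24.4%. OnlyEpcam plate 10 of mouse 3 had the lowest Epcam level, 249 CPM.

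Of 88 named genes tested for a difference of the gate effect between the mice (mouse 4 minus mouse 3), 4 passed in edgeR's quasi-likelihood test. The difference for Igha was -2.87 on the log2 scale (SE 0.58, edgeR adjusted p = 0.0129), and -2.90 without plates 7 and 10 of mouse 4. For Jchain it was -3.31 (SE 0.52, edgeR adjusted p = 0.00113), and -3.28 without those plates. For Apob, the apolipoprotein of chylomicrons, it was 1.46 (SE 0.39, edgeR adjusted p = 0.0456), and 1.55 without them.

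Gip, the hormone of K cells, gave a fitted difference of 14.2 (SE 3.74, edgeR adjusted p = 0.0436), a value that depends on the prior count because whole groups were at 0. Its 522 UMIs on CD45Epcam plates of mouse 3 were all on plate 1, and it had none on the CD45Epcam plates of mouse 4. On onlyEpcam plates it had 33 UMIs on plate 9 of mouse 3, and 45 and 218 UMIs on plates 6 and 10 of mouse 4. Without plates 7 and 10 of mouse 4 the call was lost (edgeR adjusted p = 0.0754).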

How the results depend on the processing

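Over 87 alternatives of 14 results, 66 were counted as the same, 12 moved, 7 fell short of the threshold and 2 reversed. The cause was not tested. A count of genes called was the same if its total stayed within a set fold, whatever its split. RLE factors, with 596 higher and 441 lower, thus count as the same. The T cell receptor share was the same within 1 pooled SD of plates (9.35 points). Other results had to keep their direction and side of the threshold. Over both mice, the Cd3g and Ptprc log2 changes kept their direction and side of the threshold under each alternative run. In mouse 4 alone, Cd3g lost its call without CD54Epcam plate 2 or 3, and Ptprc without either of these or onlyEpcam plate 5, 6 or 9. The count of genes called over both mice, 1058 (485 higher, 573 lower), became 751 with no replicate block (450 and 301), 488 with sums per mouse and mouse as replicate block (440 and 48), 650 over all wells (467 and 183) and 151 with wells thinned to 200 UMIs. The count in mouse 4, 193, became 330 without plates 7 and 10. The count in wells with 0 T cell receptor UMIs, 135, became 240 with no filter on low counts, 77 with no replicate block, 8 in wells with 0 UMIs of 3 lymphocyte lists, 21 in the stricter enterocyte wells and 35 in these without plates 7 and 10. In mouse 4 alone the Ptprc share differed by 13.3 points, median UMIs by 453 and the mitochondrial share by -6.20 points. In wells with 0 T cell receptor UMIs, median UMIs differed by 239 and the mitochondrial share by -2.84 points. The T cell receptor share differed by 43.1 points in mouse 3, 22.3 in mouse 4 and 14.1 with all wells as the denominator. Epcam's log2 change lost its call with no filter (-0.46), no replicate block (-0.27), sums per mouse (-0.46) and wells of 500 or more UMIs (-0.35). Leaving out 1 plate at a time gave 814 to 1133 calls over both mice, 917 to 1401 in mouse 3, 94 to 153 in wells with 0 T cell receptor UMIs, and 0 (without CD54Epcam plate 3) to 243 (without onlyEpcam plate 10) in mouse 4. The runs without plates 7 and 10, without the mitochondrial limit, with all wells as the denominator, in stricter enterocyte wells and, for depth and mitochondrial share, in wells with 0 T cell receptor UMIs were chosen after seeing the data.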
